A study of Mus musculus with 2 samples.

Results

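Osteoclast-like cells were rare among the adherent marrow cells profiled here. They numbered 64 of 5506 cells (1.16%, 95% interval 0.896 to 1.48) in the cKO library and 28 of 8171 cells (0.343%, 0.228 to 0.495) in the WT library, 92 of 13677 cells in all. They were chosen by their own transcripts. Each cell had at least 500 genes and 1000 UMIs (unique molecular identifiers, which count captured RNA molecules) and at most 15% mitochondrial UMIs. Each had at least 30 UMIs of Acp5, Ctsk and Mmp9 together per 10000, and a UMI of at least 2 of the 6 genes Atp6v0d2, Ocstamp, Dcstamp, Calcr, Oscar and Itgb3.

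The cKO library came from Prrx1-Cre+/-; Slc31a1 flox/flox mice, in which the copper importer SLC31A1 is deleted where Prrx1-Cre has been active. The WT library came from Slc31a1 flox/flox littermates without Cre, so both groups carried the floxed alleles. All mice were on a C57BL/6J background, and the number of mice behind each library and their ages are not given in the sources used here. Marrow flushed from femurs and tibias was plated, non-adherent cells were washed off, and the adherent cells were captured without osteogenic induction on the 10x Genomics platform, which reads the 3′ ends of transcripts; the study asked how SLC31A1 acts in stromal cells. The Prrx1 driver is directed at limb mesenchyme and not at the myeloid lineage that forms osteoclasts. The submitters call the cultured cells mesenchymal stem cells, whereas the cells described here were of another kind, with stromal collagens low in most of them. The cKO library held 126031142 UMIs in 6140 barcodes and the WT library 152398639 UMIs in 9125 barcodes. There was 1 library per group and both are labelled as the same batch, so every difference below is between these libraries, with no replicate check and no test; all intervals cover counting error only.

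Osteoclasts are large cells that resorb bone. They arise when precursors of the monocyte and macrophage line receive M-CSF and RANKL, the ligand of the receptor RANK, which together switch on the transcription factor NFATC1 and the fusion of precursors. The attached cell seals off a patch of bone, pumps protons into it through the V-ATPase and chloride through CLC-7, and secretes cathepsin K, MMP9 and tartrate-resistant acid phosphatase. Large multinucleated osteoclasts pass poorly through droplet capture, and the cells found here are called osteoclast-like for their transcripts alone.

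The promoters of genes on which the results turn are shown first, because NFATC1, AP-1 and MITF are the factors known to drive osteoclast genes. The sequences are RefSeq's for GRCm38.p6, from 250 bases before to 50 after an annotated start, read 5′ to 3′ on the strand of the gene. Capitals mark matches, on either strand, to GGAAA (the core bound by NFAT proteins), TGANTCA (an AP-1 site) and CATGTG (an E-box bound by MITF). A match on the other strand is read as its reverse complement, TTTCC or CACATG. Acp5 (tartrate-resistant acid phosphatase) and Ctsk (cathepsin K) define the cells, Oscar (a costimulatory receptor) is a gene of the rule with several matches, and Mt3 and Rufy4 are described below as 2 of the genes highest over macrophages.
Acp5: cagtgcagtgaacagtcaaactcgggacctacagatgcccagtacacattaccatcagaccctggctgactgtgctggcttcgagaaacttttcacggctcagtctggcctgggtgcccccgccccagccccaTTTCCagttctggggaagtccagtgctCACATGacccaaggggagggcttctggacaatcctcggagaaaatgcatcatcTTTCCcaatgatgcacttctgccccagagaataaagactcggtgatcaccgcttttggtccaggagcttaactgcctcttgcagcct
Ctsk: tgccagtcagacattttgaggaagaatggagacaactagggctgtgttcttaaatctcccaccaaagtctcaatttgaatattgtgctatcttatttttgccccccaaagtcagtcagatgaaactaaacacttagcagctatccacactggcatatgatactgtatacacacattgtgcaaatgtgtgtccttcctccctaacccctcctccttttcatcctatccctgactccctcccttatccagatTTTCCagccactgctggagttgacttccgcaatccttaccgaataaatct
Oscar: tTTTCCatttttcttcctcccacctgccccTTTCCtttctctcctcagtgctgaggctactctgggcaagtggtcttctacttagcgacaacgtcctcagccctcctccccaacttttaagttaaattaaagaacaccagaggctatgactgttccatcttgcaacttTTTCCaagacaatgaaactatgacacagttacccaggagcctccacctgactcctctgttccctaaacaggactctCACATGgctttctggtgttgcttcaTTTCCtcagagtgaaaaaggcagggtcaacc
Mt3: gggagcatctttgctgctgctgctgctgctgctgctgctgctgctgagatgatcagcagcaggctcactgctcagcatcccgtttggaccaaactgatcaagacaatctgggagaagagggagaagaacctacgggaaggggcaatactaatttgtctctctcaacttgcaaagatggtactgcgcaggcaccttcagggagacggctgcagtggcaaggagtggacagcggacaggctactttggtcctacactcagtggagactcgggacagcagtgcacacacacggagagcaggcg
Rufy4: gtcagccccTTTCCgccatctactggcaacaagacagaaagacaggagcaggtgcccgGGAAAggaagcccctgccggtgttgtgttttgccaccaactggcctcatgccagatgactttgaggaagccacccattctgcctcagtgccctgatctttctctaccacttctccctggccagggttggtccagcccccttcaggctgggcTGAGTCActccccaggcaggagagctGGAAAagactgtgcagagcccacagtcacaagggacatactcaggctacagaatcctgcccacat
The Acp5 window is chr9:22130549-22130848 on the minus strand, at the furthest downstream of its 3 listed starts. It held GGAAA on the other strand 117 and 37 bases before the start, and CATGTG on the other strand 90 bases before it. The windows at the other Acp5 starts, not printed, held 1 GGAAA each and no CATGTG. The Ctsk window is chr3:95498960-95499259 on the plus strand and held 1 GGAAA, on the other strand, at the start itself. The Oscar window is chr7:3616108-3616407 on the minus strand. It held GGAAA on the other strand 249, 220 and 82 bases before the start and 19 bases after it, and CATGTG 6 bases before it. The Rufy4 window is chr1:74125291-74125590 on the plus strand and held GGAAA at 241, 192 and 15 bases and TGAGTCA at 41 bases before the start. The Mt3 window is chr8:94152357-94152656 on the plus strand and held no match, which says only that these letters are not in this window.

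Such short motifs are common. GGAAA stood in 61.3% of all 32851 promoters of the same length, TGANTCA in 7.81% and CATGTG in 14.2%. Among 308 promoters of genes at least 2-fold higher in osteoclast-like cells than in C1q macrophages (a comparison described below), the shares were 58.1%, 8.12% and 9.42%. Among 363 promoters of the genes at least 2-fold lower they were 63.4%, 8.54% and 13.2%, and among 2670 promoters of all genes tested in that comparison 59.2%, 5.92% and 8.35%. Promoters were found for 4 of the 9 genes of the rule and 9 of the 15 genes highest over macrophages; Mmp9, Atp6v0d2, Ocstamp, Dcstamp, Itgb3, Kbtbd11 and Myo1d are named only. The data do not show which start was used, and a match is a description.

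The markers that chose the cells spread widely among them, and the WT cells held more of them on the whole. Per 10000 UMIs, the 3 markers together had a median of 115 in cKO cells (32.2 to 437) and 165 in WT cells (30.2 to 362). Acp5 alone had a median of 70.0 in cKO cells (11.1 to 212) and 75.6 in WT cells (21.3 to 176). Ctsk, the collagen-cleaving protease, had 19.3 (0 to 142) in cKO cells and 36.2 (0 to 106) in WT cells, and Mmp9, a gelatinase, had 15.4 (0 to 128) and 29.8 (0 to 138). The ranges of the cKO and WT cells overlapped for each marker. These values used the rule's own genes and are given as a description.

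**Figure D1:**
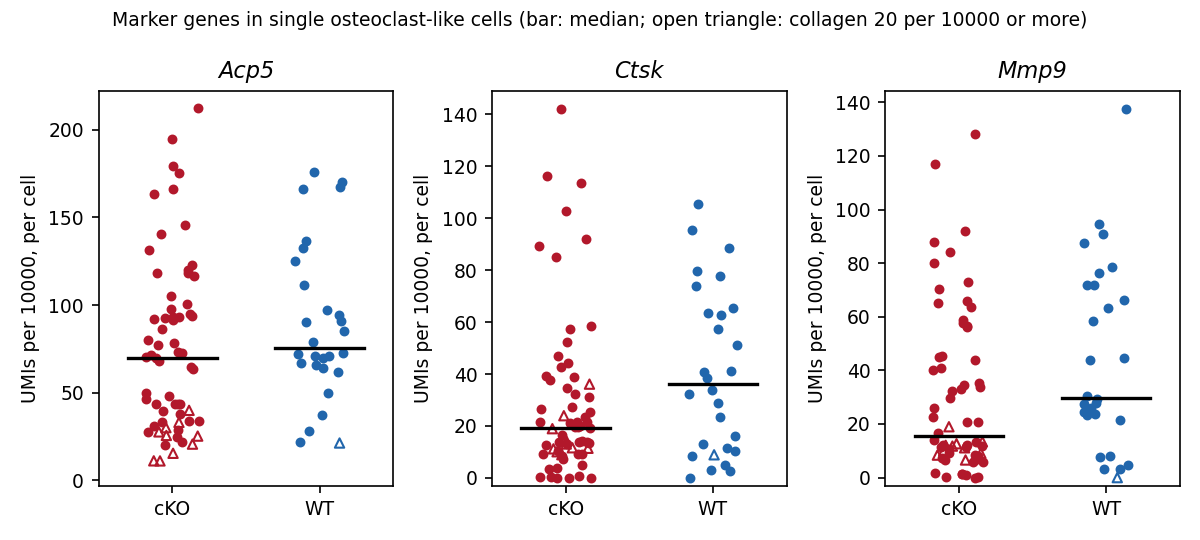
Acp5, Ctsk and Mmp9 in each osteoclast-like cell, in UMIs per 10000 UMIs of the cell, with cKO cells left of WT cells; each point is a cell and the bar is the median. The clouds overlap for all 3 genes, with medians of 70.0 and 75.6 for Acp5, 19.3 and 36.2 for Ctsk and 15.4 and 29.8 for Mmp9 in cKO and WT cells.

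Some cells lay close to the threshold of 30. The lowest cell inside had 32.2 in cKO and 30.2 in WT, and the highest outside that met the rest of the rule had 28.3 and 26.4. Between 30 and 60 lay 14 cKO and 4 WT cells inside the rule, and between 15 and 30 there were 16 further cKO and 4 further WT cells with at least 2 of the 6 genes. Of the 6 genes, exactly 2, 3, 4, 5 and 6 were seen in 10, 16, 14, 15 and 9 cKO cells and in 6, 1, 8, 6 and 7 WT cells. The limit on mitochondrial UMIs removed 7 cKO and 2 WT barcodes that met the marker rule, with marker sums of up to 390 and 280 per 10000.

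The cells held 1.26% of all UMIs of kept cells in cKO and 0.418% in WT, and shares of the osteoclast transcripts that ranged widely by gene. For genes of the rule, a high share follows from the choice of the cells and is a description. They carried 85.6% of all Acp5 UMIs in cKO and 81.6% in WT. For Dcstamp, the fusion receptor DC-STAMP, the shares were 84.9% and 85.5%. For Calcr, the calcitonin receptor, they were 85.7% and 78.3%, and for Ocstamp, which also serves fusion, 81.6% and 80.8%. Lower shares were held of Mmp9, at 73.6% and 68.6%, of Atp6v0d2, at 65.0% and 51.3%, and of Oscar, at 62.6% and 43.5%. They were lower still for Ctsk, at 42.4% and 28.2%, and for Itgb3, the beta3 integrin of the sealing zone, at 9.77% and 3.54%. Among genes outside the rule, Siglec15, a receptor of mature osteoclasts, had 10 of its 10 UMIs in cKO and 5 of 6 in WT in these cells. The shares were 9.45% and 4.12% for Nfatc1, 9.63% and 4.83% for Tnfrsf11a, which encodes RANK, 26.2% and 14.1% for Car2, a carbonic anhydrase, and 4.79% and 1.58% for the kinase Src. Most UMIs of these 4 genes thus lay in other cells.

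Osteoclast-like cells were deeper and richer in mitochondrial RNA than C1q macrophages, the cells used here for comparison. C1q macrophages were defined here as kept cells outside the rule with at least 10 UMIs of C1qa, C1qb and C1qc per 10000, a UMI of Csf1r or Adgre1, and low limits on collagen and on S100a8 and S100a9; 541 were found in cKO and 347 in WT. Osteoclast-like cells had a median of 24338.5 UMIs in cKO (1629 to 136560) and 22449 in WT (5626 to 32180), against 14368 and 14172 in the macrophages. The median mitochondrial share was 7.22% in cKO and 7.29% in WT osteoclast-like cells, against 3.90% and 3.89% in macrophages. In depth, 9 cKO and 0 WT osteoclast-like cells had under 5000 UMIs. The rule asks for UMIs of at least 2 of 6 sparse genes, which deep cells meet more easily. A further 16 cKO and 8 WT cells reached the marker level with 0 or 1 of these genes, at median UMIs of 4251 and 4347.5. The part of the rule in the depth of the chosen cells was not tested.

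Some cells carried transcripts of a second cell type. Col1a1, Col1a2 and Col3a1, the fibrillar collagens of stromal cells, together had a median of 4.10 UMIs per 10000 in cKO cells and 5.00 in WT cells, close to 3.46 and 3.88 in C1q macrophages, whose limit was 5. In 10 cKO cells (15.6%) they stood at 73.2 to 212 per 10000, and in 1 WT cell at 51.5, with the next highest at 13.8 in cKO and 12.0 in WT. C1q cells with no limit on collagen passed 20 in 23.4% of 2435 in cKO and 27.5% of 2968 in WT. The 10 cKO cells had lower marker sums, with a median of 51.9 against 131 in the other 54. They held 81.7% of the Col1a1 UMIs of the cKO osteoclast-like cells and 85.1% of those of Prrx1, a mesenchymal transcription factor gene, but 5.40% of Acp5. The deepest of them, with 136560 UMIs, 1000 collagen UMIs and 5 of the 6 genes, alone held 8.66% of all UMIs of the cKO group.

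S100a8 and S100a9, calgranulins of neutrophils, together reached 50 per 10000 in 5 cKO cells and 1 WT cell. Most of these cKO cells also had at least 20 collagen UMIs per 10000. Without cells of that collagen level 54 cKO and 27 WT cells remained, and without cells of either kind 53 and 26. Scrublet marked 2 barcodes per library at its own threshold, 0.0363% in cKO and 0.0245% in WT, and so did not work here. With the highest scores taken instead, at 0.8% per 1000 cells, 4 cKO and 1 WT osteoclast-like cells were among them. All cells that met the rule were kept, and results that rest on the cells with at least 20 collagen UMIs per 10000, called collagen-high, are given with and without them. No barcode was shared between the libraries among the osteoclast-like cells, against 11 among all barcodes.

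**Figure D2:**
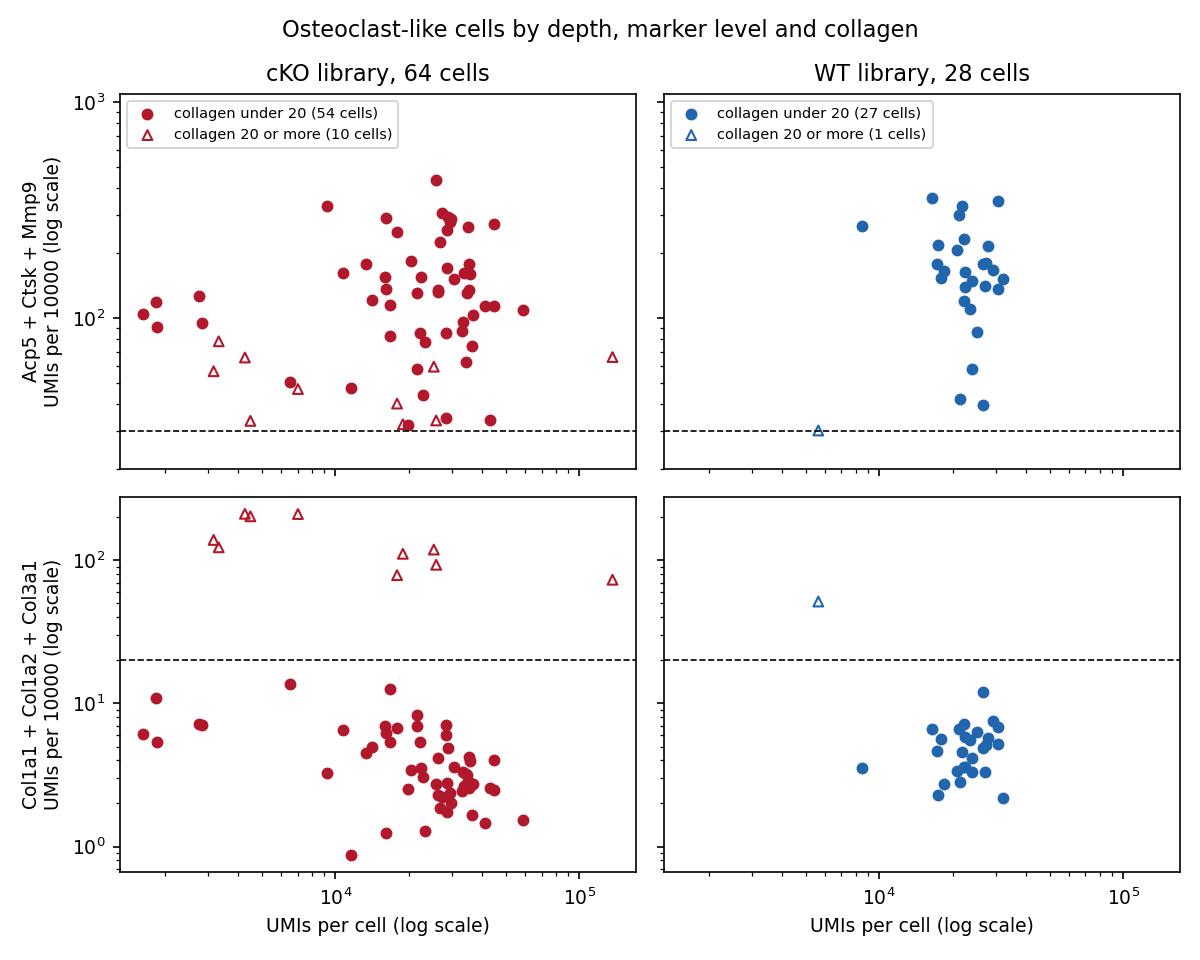
Each osteoclast-like cell by its UMIs (log axis), with Acp5, Ctsk and Mmp9 together in the upper panels and Col1a1, Col1a2 and Col3a1 together in the lower panels, per 10000 UMIs; cKO is left and WT right. Dashed lines stand at 30 (rule) and 20 (collagen-high), and open triangles mark the 10 collagen-high cKO cells and the 1 in WT, set apart from the other cells in the lower panels.

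Markers of several further cell types were at or near 0, but summed mesenchymal and neutrophil markers stood above those of C1q macrophages. All 5 erythroid genes listed were at 0 in both libraries, as were the T cell genes Cd3e and Cd3g, the stromal genes Lum and Dcn, the osteoblast and osteocyte genes Bglap and Dmp1 and the tissue macrophage genes Cd163 and Timd4. In CPM (a gene's UMIs summed over the cells of a group, scaled to a group total of 1000000), 12 mesenchymal markers summed to 2528 in cKO and 783 in WT osteoclast-like cells, against 516 and 659 in macrophages. The macrophage definition limits 3 of these 12 markers, the fibrillar collagens Col1a1, Col1a2 and Col3a1. Without collagen-high cells the sums were 500 and 734. The 6 osteoblast genes listed summed to 73.6 CPM in cKO and 41.2 CPM in WT, against 35.3 and 34.7 in macrophages. The osteoblast sums were 31.6 and 38.4 without collagen-high cells. Neutrophil markers summed to 2386 and 2278, against 226 and 220 in macrophages, whose definition limits 2 of them. Their sums were 1451 and 2281 without collagen-high cells. In WT, 1 cell held 86.8% of the S100a9 UMIs, and in cKO 5 cells held 91.6%. Macrophage identity genes summed to 872 and 1075, against 5495 and 6500.

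The osteoclast-like share of cells was 3.39 times as large in cKO as in WT (2.14 to 5.49), a difference of 0.820 percentage points (0.526 to 1.16). Moving the marker threshold to 15 or 60, or the number of the 6 genes to 1 or 3, gave ratios of 3.09 to 3.71. Leaving out collagen-high cells gave 54 cKO and 27 WT cells and a ratio of 2.97 (1.84 to 4.90). Thinning to 5000 UMIs left out all cells below that depth, among them 9 cKO and 0 WT osteoclast-like cells. After it, 45 of 3787 cKO and 26 of 5746 WT cells met the rule, a ratio of 2.63 (1.59 to 4.43). The size of the ratio depended on the cells used as the whole. Of osteoclast-like cells and C1q macrophages together, the share was 10.6% in cKO (64 of 605) and 7.47% in WT (28 of 375), a ratio of 1.42 (0.896 to 2.29). With no collagen limit on the macrophages, an alternative chosen once the data had been seen, it was 2.56% in cKO (64 of 2499) and 0.935% in WT (28 of 2996), a ratio of 2.74 (1.73 to 4.44).

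Collagen differed between the cells used as the whole, with medians over all kept cells of 13.8 UMIs per 10000 in cKO and 76.2 in WT. Its part in the ratio of 1.42, where the collagen limit kept 541 of 2435 C1q cells in cKO and 347 of 2968 in WT, was not tested. A larger share of osteoclast-like cells and a smaller share of other cells cannot be told apart in these counts.

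Slc31a1 itself differed by less than counting error between the osteoclast-like cells of the libraries. It had 67.9 CPM in cKO (107 UMIs, in 46 of 64 cells) and 74.5 CPM in WT (47 UMIs, in 19 of 28 cells), a ratio of 0.911 (0.641 to 1.31). C1q macrophages had 68.8 and 67.0 CPM, and all kept cells together 28.1 CPM in cKO and 48.4 CPM in WT. With cells thinned to 5000 UMIs, 32.7% of cKO and 21.4% of WT osteoclast-like cells held a UMI, against 30.2% and 24.7% of macrophages. The Slc31a1 gene spans bases 62360727 to 62391769 of chromosome 4 (GRCm38, plus strand). The floxed exons are not named in the labels, so 3′ UMIs need not report the deletion.

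Beyond the rule's own genes, the osteoclast-like cells differed from the C1q macrophages of their own library by many genes of bone resorption. Of 2561 genes with at least 100 CPM in at least 1 group of either library, 299 (11.7%) were at least 2-fold higher in osteoclast-like cells in both libraries and 364 (14.2%) at least 2-fold lower. By direction alone, 981 were higher and 1302 lower in both libraries. The median log2 ratio of all genes was -0.14 in cKO and -0.13 in WT. The cells were chosen on osteoclast transcripts and the macrophages on C1q transcripts, so these ratios describe the cells and support nothing about the choice; the mitochondrial share and depth given above also differed between the cell types, and their part in the ratios was not tested. All 7 genes of the rule that passed the filter on low genes were higher; Calcr and Oscar did not pass it in the comparison of libraries or here.

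The V-ATPase, the proton pump of the ruffled border, was higher through most of its subunits. Of 22 listed subunits, 17 were tested and 15 were higher in both libraries, 11 of them at least 2-fold, with 1 subunit at least 2-fold lower and a median log2 ratio of 1.2 in cKO and 1.41 in WT. Atp6v0d2, a subunit known from osteoclasts, belongs to the rule. Atp6v1b2 had 1099 CPM in cKO and 1533 in WT osteoclast-like cells, against 261 and 247 in macrophages. Atp6v1d had 536 and 558, against 131 and 137, and Atp6v0c, of the membrane ring, 2076 and 2368, against 742 and 769. Tcirg1, the osteoclast form of the large membrane subunit, had 522 and 496, against 133 and 154. The alternative large subunit Atp6v0a1 went the other way, with 52.6 and 66.6, against 236 and 260. The same complex thus held members on both sides.

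Genes of acid and enzyme secretion lay on both sides. Of 13 tested of 18 listed, 6 were higher and 7 lower in both libraries, 5 of each at least 2-fold. Snx10, a sorting protein needed for the ruffled border, had 812 CPM in cKO and 1072 in WT, against 149 and 137 in macrophages. Slc4a2, the chloride-bicarbonate exchanger, had 171 and 151, against 27.4 and 25.5, and Clcn7, the chloride transporter CLC-7, had 160 and 201, against 64.9 and 58.5. Mmp14, a membrane metalloproteinase, had 545 and 718, against 226 and 232. Among those at least 2-fold lower, Ctsb (cathepsin B) had 1327 and 1664, against 7034 and 7153, Ctsd (cathepsin D) 1422 and 1560, against 5497 and 5887, Ctsl (cathepsin L) 242 and 182, against 499 and 407, and Lamp1, a lysosomal membrane protein, 293 and 222, against 1307 and 1312. Car2, the carbonic anhydrase that supplies the protons, was below the filter, with a UMI in 28.1% of cKO and 28.6% of WT cells, against 0.739% and 0% of macrophages at the depths given above. After thinning to 5000 UMIs the shares were 16.4% (9 of 55 cells) and 7.14% (2 of 28), against 0.206% and 0%.

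Of 11 tested osteoclast transcription factors of 19 listed, 8 were higher in both libraries, 5 of them at least 2-fold, and 1 was at least 2-fold lower. Nfatc1, the master regulator, had 377 CPM in cKO and 449 in WT, against 36.7 and 43.1 in macrophages. After thinning to 5000 UMIs it was seen in 78.2% of 55 cKO and 75% of 28 WT cells, against 18.7% of 486 and 21.2% of 320 macrophages. Fosl2, an AP-1 member, had 316 and 373, against 32.8 and 26.4. Jdp2, another AP-1 partner, had 312 and 346, against 27.3 and 17.8, and Ppargc1b, a coactivator of mitochondrial genes, had 200 and 300, against 20.6 and 26.8. All 4 genes were higher in osteoclast-like cells in both libraries.

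Genes known to restrain osteoclast formation were mostly lower, 7 of 8 tested of 13 listed, 5 of them at least 2-fold, with a median log2 ratio of -2.29 in cKO and -2.12 in WT. Irf8, a repressor of Nfatc1, had 17.1 CPM in cKO and 23.8 in WT, against 149 and 183 in macrophages. Id2, an inhibitor of helix-loop-helix factors, had 172 and 128, against 758 and 480, and Lilrb4a, an inhibitory receptor, 24.1 and 49.1, against 272 and 254. Ptpn6, the phosphatase SHP-1, was the exception, at 191 and 254, against 135 and 136.

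The receptors that precursors share with macrophages differed less. Of 12 tested genes of RANK, M-CSF and ITAM signalling, 4 were higher and 8 lower, none at least 2-fold higher in both libraries, with medians of -0.34 and -0.17. Tnfrsf11a, which encodes RANK, had 311 CPM in cKO and 536 in WT, against 184 and 183. Vav3, an exchange factor downstream of the integrin, was at least 2-fold lower, at 97.7 and 111, against 313 and 323. Podosome and sealing zone genes were higher for 15 of 18 tested, 7 of them at least 2-fold. Pstpip1, a podosome adaptor, had 406 and 366, against 46.7 and 50.7, Dock5, an exchange factor for Rac, 287 and 342, against 43.3 and 42.3, and Myo10, a motor of filopodia, 334 and 477, against 51.1 and 43.9. Src, the kinase whose loss stops ruffled border formation in mice, was below the filter; after thinning it was seen in 34.5% of cKO and 32.1% of WT cells, against 1.23% and 1.56% of macrophages. Cbl, the adaptor that Src acts through, was lower, at 75.5 and 87.2, against 206 and 213.

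The 8 tested fusion partners of 11 listed lay on both sides, with 4 higher in both libraries, 3 of them at least 2-fold, and 3 lower, 1 of them at least 2-fold. Their median log2 ratio was -0.016 in cKO and 0.35 in WT. Cd9, a tetraspanin, had 609 CPM in cKO and 647 in WT, against 192 and 215 in macrophages, and Sh3pxd2a, a scaffold of invasive adhesions, 166 and 203, against 36.1 and 47.8. Adam8, a membrane protease, was lower, at 53.3 and 55.5, against 336 and 221. Only 4 of 14 signals between osteoclasts and osteoblasts were tested. Pdgfb, a growth factor that preosteoclasts release, had 200 and 247, against 53.8 and 53.8, and Sema4d, which restrains osteoblasts, 264 and 284, against 100 and 102. Igf1 had 22.8 and 60.2, against 525 and 636, and the chemokine Cxcl16 had 20.3 and 14.3, against 204 and 186. Pdgfb and Sema4d were thus higher and Igf1 and Cxcl16 lower in both libraries.

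**Figure D3:**
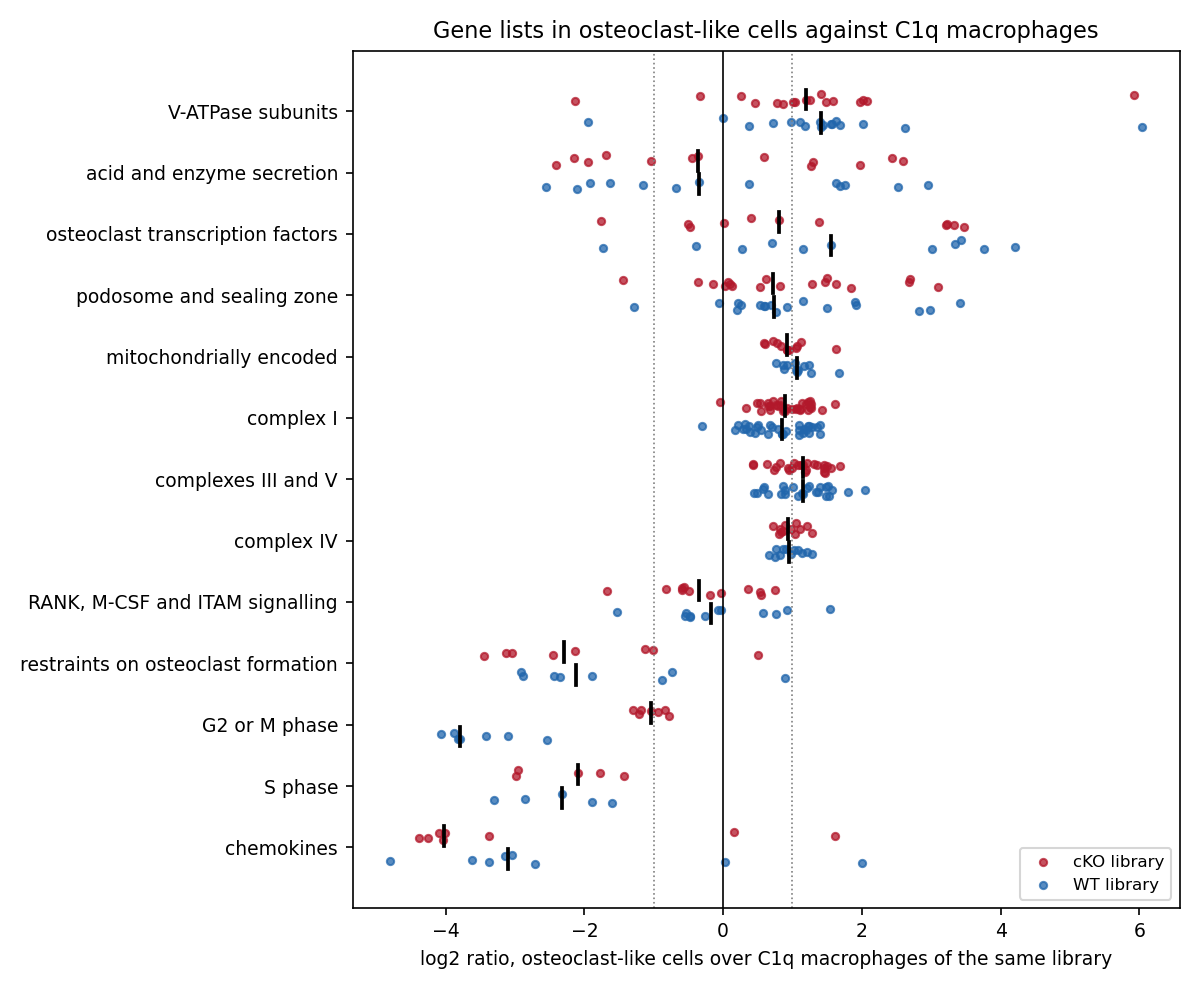
Log2 ratio of osteoclast-like cells over C1q macrophages for each tested gene of 13 lists (horizontal axis), with cKO in red above WT in blue; bars are list medians and dotted lines mark 2-fold. The V-ATPase medians stood at 1.2 in cKO and 1.41 in WT, and those of the restraints on osteoclast formation at -2.29 and -2.12.

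Nuclear and mitochondrial genes of the respiratory chain were higher nearly throughout. Of complex I genes, 32 of 33 tested were higher in both libraries, 12 of them at least 2-fold, with medians of 0.90 in cKO and 0.85 in WT. Complex IV, the copper-containing cytochrome oxidase, had 12 of 12 higher, 3 of them at least 2-fold (0.94 and 0.95). Complexes III and V had 25 of 25 higher, 15 of them at least 2-fold (1.16 and 1.15), and the mitochondrially encoded genes 12 of 12, 3 of them at least 2-fold (0.92 and 1.06). Of 5 tested copper genes, Cox17, a chaperone that brings copper to complex IV, had 356 CPM in cKO and 339 in WT, against 184 and 159, and Atox1, which hands copper to the Golgi pumps, had 568 and 596, against 396 and 407. Of 7 tested genes of iron uptake and storage, 2 were higher and 5 lower, with medians of -0.92 and -0.78. Tfrc, the transferrin receptor for iron uptake, was higher, at 360 and 414, against 124 and 91.1. Fth1, the ferritin heavy chain that stores iron, had 12951 and 12290, against 24506 and 21106, and Slc40a1, the iron exporter ferroportin, 10.8 and 20.6, against 139 and 158.

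Macrophage identity genes were lower for 10 of 11 tested, 9 of them at least 2-fold. Mrc1, the mannose receptor, had 33.6 CPM in cKO and 22.2 in WT, against 616 and 727 in macrophages, and Cx3cr1, the fractalkine receptor, 12.7 and 9.51, against 285 and 292. The exception was Cd68, a lysosomal protein that osteoclasts share, at 517 and 572, against 375 and 461. Of 10 lipid-associated macrophage genes, 8 were lower, while Lpl (lipoprotein lipase) was higher, at 1435 and 2192, against 482 and 444. Chemokines were at least 2-fold lower for 6 of 8 tested, as with Pf4 at 104 and 163, against 1802 and 2018, whereas the receptor Ccr1 stood at 273 and 341, against 89.0 and 84.6. All 5 tested S phase genes were at least 2-fold lower, and all 7 tested G2 or M phase genes were lower, 4 of them at least 2-fold in both libraries.

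Of the 15 genes highest over macrophages, 9 lay outside the rule. Mt3, a metallothionein that binds copper and zinc and is best known from brain, had 361 CPM in cKO and 523 CPM in WT osteoclast-like cells. C1q macrophages held 1 Mt3 UMI in each library, 0.127 and 0.196 CPM, so the ratios were 2846 (509 to 112610) in cKO and 2672 (476 to 105836) in WT. The osteoclast-like cells held 90.0% of all Mt3 UMIs of kept cells in cKO and 93.8% in WT. After thinning, 56.4% of cKO and 57.1% of WT cells held an Mt3 UMI, against 0.206% and 0.312% of macrophages.

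Slc9b2, a sodium-proton exchanger of osteoclast mitochondria and membranes, had 517 CPM in cKO and 864 CPM in WT, against 1.40 and 1.17 in macrophages, ratios of 370 (206 to 744) and 735 (336 to 2013). Rufy4, an adaptor of lysosome and autophagy traffic, had 123 and 189 CPM, with 0 UMIs in cKO macrophages and 1 in WT macrophages. It was at least 323-fold higher in cKO, against a floor of 3 UMIs over all macrophages of the library, and 963 times as high in WT (170 to 38367). Kbtbd11 had 160 and 266 CPM, against 0.127 and 0.979, and Akap6, an anchor of protein kinase A, 190 and 303, against 1.65 and 2.35. Of all UMIs of kept cells, osteoclast-like cells held 78.7% in cKO and 85.0% in WT for Slc9b2 and 83.3% and 87.5% for Rufy4. For Kbtbd11 they held 62.9% and 52.7%, but for Akap6 only 12.9% and 5.94%, so most Akap6 UMIs lay in other cells. Nyap2 had 71.7 and 120 CPM, against 0.254 and 0.587, Myo1d, a motor, 428 and 503, against 4.19 and 8.62, and Cacnb2, a calcium channel subunit, 207 and 265, against 4.06 and 5.68. At the other end, Slc9a9, an endosomal sodium-proton exchanger, had 19 and 23.8 CPM, against 520 and 707, F13a1, a transglutaminase, 22.2 and 20.6, against 427 and 458, and Cd5l, a secreted macrophage protein, 2.54 and 4.76, against 76.3 and 163.

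Among cells of at least 10000 UMIs with collagen under 20 per 10000, 47 in cKO and 26 in WT, the osteoclast markers did not all vary together. Spearman's rho with Acp5 was 0.72 in cKO and 0.49 in WT for Mmp9, 0.67 and 0.58 for Atp6v0d2, and 0.68 and 0.66 for Itgb3. It was 0.26 and 0.45 for Ctsk and -0.09 and -0.02 for Dcstamp. Mmp9 also ran with the mitochondrial share of UMIs, at 0.64 and 0.71. These are descriptions across cells of a library, which share that library and a limited count per cell. Sparse genes can give low values, and the part of this was not tested. Medians per 10000 UMIs were 0.87 in cKO and 1.24 in WT for Itgb3, and 2.54 and 1.82 for Dcstamp. The genes compared also chose the cells, which can itself change rho, and this was not tested.

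Between the libraries, most differences of at least 2-fold in osteoclast-like cells rested on collagen-high cells. Of 1939 genes that reached 100 CPM in cKO or WT cells, 35 (1.81%) were at least 2-fold higher in cKO and 13 (0.67%) at least 2-fold lower. Without collagen-high cells, on the same genes, 3 (0.155%) were higher and 14 (0.722%) lower. Without the deepest cell of each library, also chosen once the data had been seen, 10 were higher and 8 lower. In C1q macrophages the same genes gave 3 (0.155%) and 4 (0.206%). By direction alone, cKO was above WT for 906 of the 1939 genes and below it for 1033, and the median log2 ratio was -0.03. Without collagen-high cells these counts were 947 and 992.

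The 12 highest named genes were mainly stromal. For each, the cell with most of its UMIs held 46.9% to 77.6% of its cKO UMIs. That cell was not the same for all 12. For Top2a it was the second deepest cell, with 93 of 190 UMIs, while the deepest cell held 34. Ebf1, a transcription factor of B cells and stroma, had 105 CPM in cKO and 6.34 CPM in WT osteoclast-like cells, a ratio of 16.5 (6.32 to 61.3) that was 1.17 without collagen-high cells. Tagln, an actin-binding protein of contractile cells, had 354 and 33.3 CPM (ratio 10.6, and 0.649 without them). Timp1, an inhibitor of metalloproteinases, had 256 and 41.2 CPM (6.20 and 0.832). Ccn1, Ccn2, Fstl1, Cald1, Col12a1, Cnn2 and Col5a2, genes of matrix and contraction, had ratios of 3.75 to 8.37, and of 0.615 to 1.37 without them. Sparc had 560 and 152 CPM (3.68 and 0.617), and Col1a1 784 and 271 CPM (2.89 and 0.685). Prrx1 had 64 and 9.51 CPM. The mesenchymal list as a whole moved with these cells, with 4 of 4 tested genes at least 2-fold higher and none higher without collagen-high cells.

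**Figure D4:**
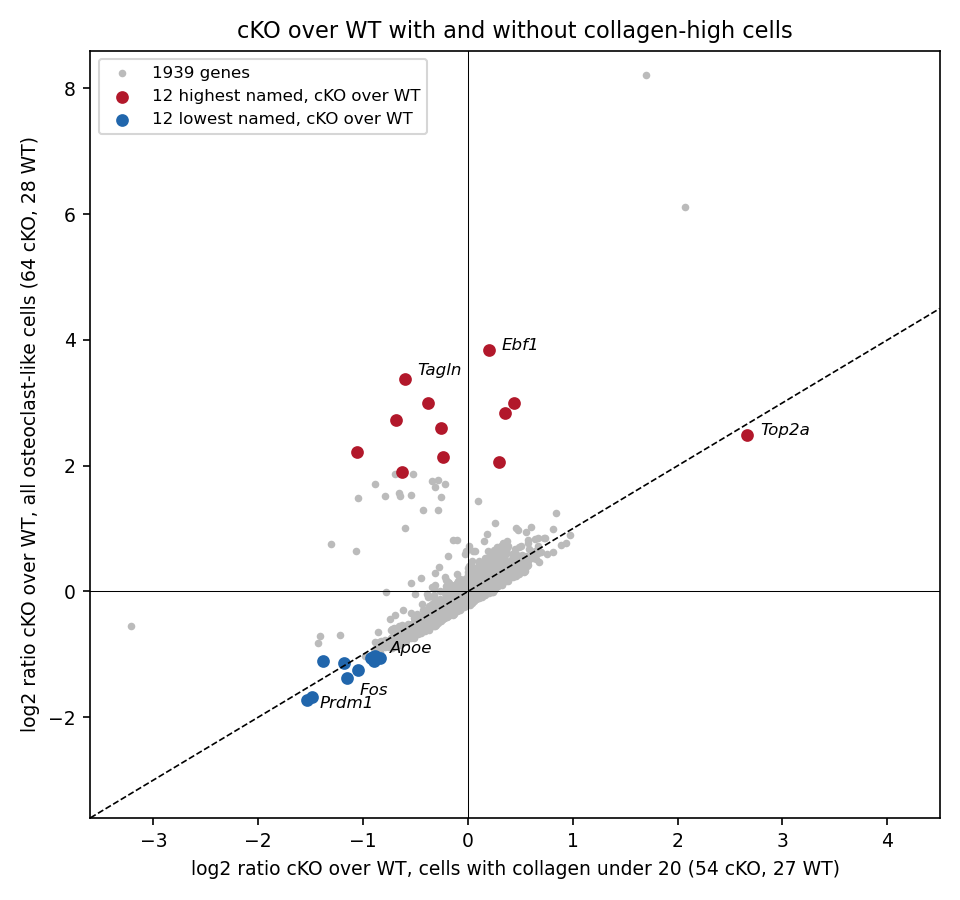
Log2 ratio of cKO over WT osteoclast-like cells for 1939 genes, with all cells on the vertical axis and without collagen-high cells on the horizontal axis; the dashed line marks equal values, red points are the 12 highest named genes and blue points the 12 lowest. The red points sit far above the line apart from Top2a, and the blue points close to it; the 2 grey points above all others are immunoglobulin transcripts, which the naming rule left out.

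Top2a, a topoisomerase of dividing cells, was the exception among the 12 highest, with 120 CPM in cKO and 20.6 CPM in WT, a ratio of 5.85 (3.34 to 11.2) and of 6.67 without collagen-high cells. It rested on few cells. The G2 or M phase genes had 1220 UMIs in cKO, 75.3% of them in 3 cells, and 100 in WT. The cell with most, the second deepest of cKO, had 576 such UMIs, a marker sum of 109 and 1.53 collagen UMIs per 10000. After thinning, at least 3 of these genes were seen in 16.4% of cKO cells (9 of 55) and 10.7% of WT cells (3 of 28), against 36.4% and 33.8% of C1q macrophages. Without collagen-high cells the shares were 8.16% (4 of 49) and 7.41% (2 of 27). Unthinned they were 32.8% and 35.7%, against 50.1% and 46.7%.

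The 12 lowest named genes were lower in cKO also without collagen-high cells. Prdm1, which encodes BLIMP1, a repressor of the genes that restrain osteoclast formation, had 41.2 CPM in cKO and 138 CPM in WT, a ratio of 0.299 (0.213 to 0.417) and of 0.340 without collagen-high cells. It had a UMI in 25 of 64 cKO and 19 of 28 WT cells, and after thinning in 14.5% and 28.6%, against 5.97% and 6.56% of macrophages. Dgki, a diacylglycerol kinase, had 90.0 and 290 CPM (0.310, 0.248 to 0.389; 0.354 without), and after thinning a UMI in 29.1% and 50% of cells. Fos, the AP-1 member needed to form osteoclasts in mice, had 48.8 and 128 CPM (0.380, 0.275 to 0.526; 0.447 without). Each of these had larger values in WT at the summed level, while cells of both libraries overlapped.

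Apoe, apolipoprotein E, had 1500 CPM in cKO and 3086 CPM in WT osteoclast-like cells, a ratio of 0.486 (0.457 to 0.516) and of 0.533 without collagen-high cells. Its median per 10000 UMIs in the 47 cKO and 26 WT cells of at least 10000 UMIs was 13.9 in cKO (1.52 to 49.7) and 31.2 in WT (1.41 to 79.2). C1q macrophages showed the same direction, with 4410 and 6485 CPM and a ratio of 0.680. Lyz2, lysozyme, had 250 and 539 CPM (0.465, 0.383 without collagen-high cells and 0.825 with each cell weighted equally), Txnip, an inhibitor of thioredoxin, 211 and 438 CPM (0.481 and 0.559), and Pltp, a phospholipid transfer protein, 176 and 360 CPM (0.488 and 0.539). In the same 47 cKO and 26 WT cells, the Lyz2 median per 10000 UMIs was 0.69 in cKO (0 to 32.9) and 0.90 in WT (0 to 38.4). Among the rest of the 12 were Frmd4b and Cask (scaffold proteins), Kif13b (a kinesin) and Coq8a (of coenzyme Q synthesis), with ratios of 0.417 to 0.479.

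Of the 7 tested genes of the rule, 6 were lower in cKO, none by 2-fold. Acp5 had 7958 CPM in cKO and 8950 CPM in WT, a ratio of 0.889 (0.862 to 0.918) that was 0.990 without collagen-high cells. Ctsk had 2966 and 4139 CPM (0.717, 0.683 to 0.752; 0.760 without), Mmp9 2882 and 4285 CPM (0.673, 0.641 to 0.706; 0.747 without) and Atp6v0d2 1457 and 1975 CPM (0.738, 0.688 to 0.791; 0.848 without). Ocstamp had 158 and 200 CPM (0.791, 0.636 to 0.987), whereas Dcstamp had 306 and 271 CPM (1.13, 0.945 to 1.35). These are genes of the rule, so the values describe the cells that were chosen.

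Genes of RANK, M-CSF and ITAM signalling were lower in cKO for 11 of 11 tested, none by 2-fold, with a median log2 ratio of -0.35. Without collagen-high cells 9 of 11 were lower, with a median of -0.20, and in C1q macrophages the median was -0.14. Tnfrsf11a had 311 CPM in cKO and 536 CPM in WT, a ratio of 0.580 (0.504 to 0.668), of 0.664 without collagen-high cells and of 1.00 in C1q macrophages. Its median per 10000 UMIs in the cells of at least 10000 UMIs was 2.70 in cKO (0 to 9.67) and 5.07 in WT (1.86 to 12.3), so the cells of the libraries overlapped. Gab2, an adaptor that binds RANK, had a ratio of 0.671, Cd84, a receptor of the SLAM family, of 0.692, and Csf1r, the M-CSF receptor, of 0.697. Of 10 tested transcription factors 9 were lower (median -0.30, and -0.13 without collagen-high cells), among them Mitf, a partner of NFATC1, at 216 and 344 CPM.

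Other osteoclast lists stood nearer to the median of all genes. The V-ATPase subunits had 5 of 16 higher and a median of -0.08, and 10 of 16 and 0.07 without collagen-high cells. The acid and enzyme genes had a median of 0.01, the podosome genes of -0.21 with 4 of 17 higher, and the fusion partners of -0.22 with 0 of 6 higher. Without collagen-high cells the last 2 medians were -0.05 each. Complex I had a median of 0.06, complex IV of -0.01 and the mitochondrially encoded genes of -0.10. The copper genes had 1 of 5 higher (-0.07), with Mt3 at a ratio of 0.691 and Mt1 at 0.851. Slc9b2 had a ratio of 0.598.

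Antioxidant genes were higher in cKO for 9 of 11 tested, none by 2-fold, with a median log2 ratio of 0.35 and of 0.43 without collagen-high cells. Txnrd1, thioredoxin reductase, had 240 CPM in cKO and 155 CPM in WT (ratio 1.54). Gsr, glutathione reductase, had 325 and 228 CPM (1.43), Gclm, of glutathione synthesis, 287 and 206 CPM (1.39), and Txn1, thioredoxin, 1383 and 1049 CPM (1.32). Gpx1 and Sod2 went the other way, at 0.826 and 0.867. C1q macrophages had 11 of 11 higher, with a median of 0.19 and Gclm at 1.75, so the direction was not particular to osteoclast-like cells. The chemokine Ccl9 had 268 and 157 CPM (1.71, and 1.91 without collagen-high cells), with a ratio of 1.56 in macrophages.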

How the data were processed

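Single-cell 3′ RNA-seq of adherent marrow cells was deposited as 1 count matrix per library, from 1 cKO and 1 WT library. Per the file headers, the deposited values are UMI counts per gene and barcode made with Cell Ranger 7.1.0, and per the submitters' processing notes reads were aligned to mm10 (GRCm38) and Seurat was used. The counting of introns and the calling of cells are not given in the sources used here; overlapping genes and near-identical copies may share reads.

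Each matrix holds 32285 genes, of which 32158 matched GENCODE M21, the source of coordinates, which are 1-based on GRCm38. Cells were filtered and chosen as the results state, with no clustering and no doublets removed. UMIs were summed per library and cell group and scaled to CPM. Ratios have exact conditional binomial, levels exact Poisson and shares exact Clopper-Pearson 95% intervals, and share differences Newcombe intervals. Log2 ratios used a prior of 1 CPM, and "at least 2-fold" refers to these. Depths were matched by thinning each cell of at least 5000 UMIs to 5000 and leaving out the rest. This kept 55 of 64 cKO and 28 of 28 WT osteoclast-like cells.

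The cells and the gene lists were chosen with earlier results of these data known. Genes were named by rule: the 9 genes that chose the cells; in each list, up to 4 genes with the largest cKO over WT ratio in either direction; the 12 highest and 12 lowest ratios of cKO over WT; the 15 highest and 15 lowest over C1q macrophages, leaving out mitochondrial, ribosomal protein, haemoglobin, immunoglobulin and predicted genes; Slc31a1 and Prrx1. Not all are printed, and further list members were picked with their values in view. Simulated counts with known changes were used to test the ratios and their intervals. They held counting error alone and no variation between cells, so they do not cover genes whose UMIs rest on few cells. Analyses used Python 3.11.15, numpy 2.4.6, scipy 1.17.1, pandas 2.3.3 and scanpy 1.11.5 (Scrublet). Alternatives covered the cell filter, the rule, doublets, depth, scaling, gene filter, fold and prior.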

Additional observations from a re-analysis of the deposited data

Results flagged for a closer look

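For 10 genes the ratio of cKO over WT lay on opposite sides of 1 in osteoclast-like cells and in C1q macrophages, with neither counting interval reaching 1. The difference between the cell groups was not tested, since each has 1 library per genotype. Ctsk had a ratio of 0.717 (0.683 to 0.752) in osteoclast-like cells and 2.63 (1.57 to 4.60) in macrophages, and Mmp9 0.673 (0.641 to 0.706) and 2.32 (1.49 to 3.73). Macrophages held little of either, 9.78 and 3.72 CPM of Ctsk and 11.8 and 5.09 CPM of Mmp9 in cKO and WT. Only cells that met the whole rule were taken out of them. In the units of the rule, whose marker threshold is 30, macrophage marker sums reached 52.2 in cKO and 11.1 in WT. The macrophages of cKO thus still reached above that threshold, and the part of such cells in these ratios was not tested. Fos had 0.380 (0.275 to 0.526) in osteoclast-like cells and 1.6 (1.36 to 1.88) in macrophages. The other 7 were stromal genes that were higher in cKO osteoclast-like cells through collagen-high cells, which the macrophage definition leaves out. Ebf1 had 16.5 in osteoclast-like cells and 0.561 in macrophages, Fstl1 8.37 and 0.580, and Cald1 6.75 and 0.656. Col12a1 had 4.52 and 0.658, Col5a2 3.75 and 0.700, Sparc 3.68 and 0.645, and Col3a1 2.48 and 0.639.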

How the results depend on the processing

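The share of osteoclast-like cells was higher in cKO under every alternative run. It was 0.862% in cKO under the stricter cell filter, 0.672% in cKO and 0.171% in WT without cells at 5 or more collagen UMIs per 10000, and 1.92% and 0.663% among cells of at least 10000 UMIs. Of osteoclast-like cells and C1q macrophages together it was 10.6% and 7.47%, a ratio of 1.42 whose interval spanned 1 (0.896 to 2.29). With no collagen limit on macrophages it was 2.56% and 0.935%. Genes at least 2-fold apart, 35 higher and 13 lower in cKO, became 57 and 20 with totals that leave out markers, collagens, mitochondrial and ribosomal genes, 100 and 34 at 50 CPM, 10 and 6 at 300 CPM, and 87 and 132 at 1.5-fold. Leaving out cells gave 9 and 37 (collagen at 5 or more), 9 higher (highest Scrublet scores), 14 and 8 (deepest 10% of cells), 10 and 8 (deepest cell), 2 higher (collagen at 20 or more, with the gene filter applied anew), and 1 and 8 (also S100a8 and S100a9 at 50 or more). Of all calls, 72.9% were higher in the main comparison and 19.6% without cells at 5 or more collagen UMIs. Over macrophages, 299 higher and 364 lower became 491 and 610 at 1.5-fold, and 584 lower at 50 CPM.

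Stromal genes turned round without collagen-rich cells; the causes were not tested. Leaving out cells at 5 or more, at 20 or more, and at 20 or more or with S100a8 and S100a9 at 50 or more gave log2 ratios in that order of -1.36, -0.60 and -0.61 for Tagln, -0.51, -0.68 and -0.70 for Cald1, -0.020, -0.26 and -0.27 for Timp1, -0.46, -0.23 and -0.31 for Col12a1, -0.77, -0.62 and -0.61 for Col5a2, -1.12, -0.69 and -0.75 for Sparc, -0.18, -0.52 and -0.51 for Col1a2, -0.26, -0.54 and -0.57 for Col1a1, -1.12, -0.43 and -0.52 for Col3a1, and -0.26, -0.54 and -0.57 for the mesenchymal median. Ebf1 was at -0.97 under the first, and Ccn1 at -0.38 and -0.41 under the other two. The settings at 20, the S100 limit, the deepest cell and the 10000 UMI limit were added after the data were seen. So was the share with no collagen limit on macrophages. No paired analysis was possible because each group has 1 library. With 28 WT cells, genes under 100 CPM rest on few UMIs.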
